A study of Rattus norvegicus with 12 samples.

Results

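The right ventricle (RV) was compared with the left ventricle (LV) of the same heart in 6 rats, and the genes described here are those whose RV minus LV difference had the same sign in all 6 hearts and whose deposited TPM was at least 1 in 3 or more libraries. Of 23526 genes with a symbol in the table, 12154 met the TPM limit, and 1716 of them (14.1%) had the same sign in the 6 hearts, 789 higher in RV (6.49%) and 927 lower in RV (7.63%). The animals were adult male Sprague-Dawley rats aged 3 to 4 months with no engineered allele. In the normoxic hearts 1, 2 and 3 (groups RV_N and LV_N) the rats had been kept in room air. The hypoxic hearts 1, 2 and 4 (groups RV_H and LV_H) came from rats kept at 10% O2 in a hypobaric chamber for 2 weeks. No drug treatment is described for the exposure period in either group. All rats were anesthetized with ketamine and xylazine before the heart was removed. RNA came from whole pieces of the free walls after removal of the atria, so each library pools all cell types of the wall. The question was which transcripts mark one chamber of the heart whatever the exposure, so both exposures were pooled and the heart was used as a block.

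The RV pumps at low pressure into the lungs and the LV at high pressure into the body, and the chambers arise from different progenitor fields of the embryonic heart, which use different transcription factors. The ventricular wall is built of cardiac myocytes, which hold most of its RNA, and of fibroblasts, endothelial cells, resident macrophages and the mesothelial cells of the epicardium. Wall stress raises the natriuretic peptides in myocytes, and chronic hypoxia loads the RV through constriction and remodeling of pulmonary arteries. In bulk tissue, fewer cells of a type and less RNA per cell cannot be told apart.

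Libraries held 21458174 to 39972399 estimated counts, and 38.26% to 50.56% of a library came from the mitochondrial genome. Unless named as deposited, values of single genes below are scaled TPM, the deposited TPM divided by the TMM factor of the library (0.853 to 1.206). Summed levels of lists are sums of deposited TPM. Differences are RV minus LV on the log2 scale with a standard error (SE) from a model with heart as block. The cardiac myocyte markers, which define the labelled tissue, summed to 69680.0 to 85760.0 TPM in LV and 64530.0 to 76390.0 TPM in RV, and all 17 were detected. Scaling decides the sign of small differences. The median log2 difference of all genes was 0.00 on the TMM scale, 0.16 when library totals alone were used and 0.28 with scaling on cardiac myocyte markers, so every direction here is relative to the TMM scale. With TPM as deposited, 1705 genes were higher and 123 lower in RV in all 6 hearts, and 827 of these were among the 1716.

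At an adjusted p under 0.05 in the paired test, 307 of 13756 genes were called (2.23%), 166 higher in RV (1.21%) and 141 lower (1.03%), with 54.1% of the calls higher in RV against 81.6% with library totals and 95.5% with myocyte scaling. These shares are the background for the counts of called genes in the lists below. For the same sign in 6 hearts the background is 6.49% higher and 7.63% lower in RV. Of the 307, 300 were among the genes with the same sign in 6 hearts. The sign and the test use the same libraries, so this overlap is a description. Of the 300, 160 were higher in RV, with a median log2 difference of 0.81, and 140 were lower, with a median of -0.54. Those higher in RV were the rarer transcripts, with a median deposited TPM of 5.45 against 20.9 for those lower in RV. The difference was over 2-fold for 37 genes higher and 26 genes lower in RV. RV and LV libraries did not overlap in scaled TPM for 78 of the 300 genes, against 1.13% of all genes tested. The remaining 1416 genes with the same sign were not called. The calls depend on single hearts: without normoxic heart 2 there were 0 higher and 1 lower, without hypoxic heart 1 there were 0 of either, and without hypoxic heart 2 there were 35 higher and 30 lower. Without normoxic heart 3 the numbers were 34 and 30, and without hypoxic heart 4 they were 42 and 22. In these fits, and without normoxic heart 1 (189 and 130), all 307 genes kept their direction and an unadjusted p under 0.05. The 307 were chosen in the same 6 hearts, so this outcome was largely fixed by that choice and is no support for the calls.

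**Figure D1:**
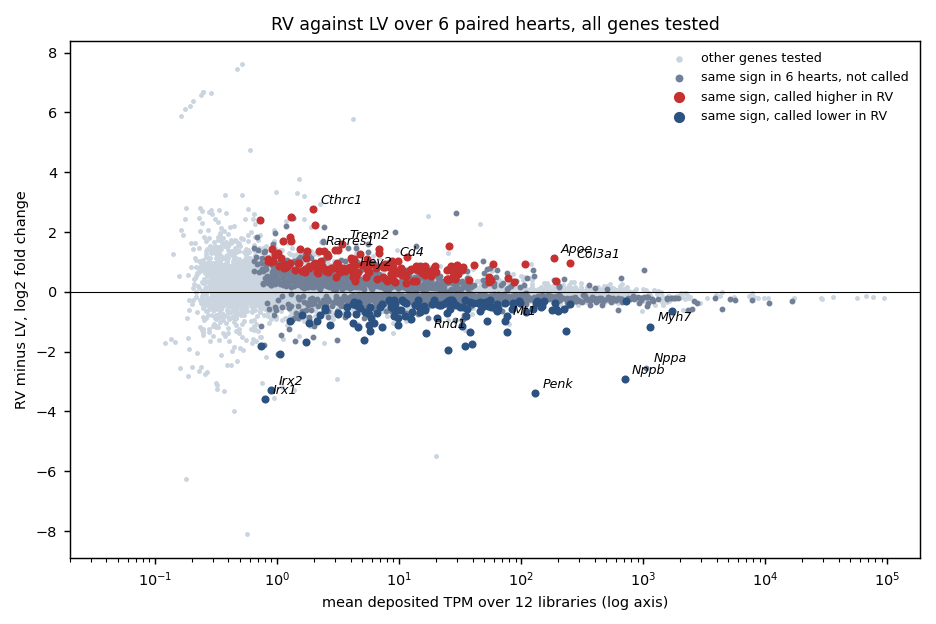
Log2 difference RV minus LV over 6 hearts (vertical axis) against mean deposited TPM over 12 libraries (horizontal log axis) for the 13756 genes tested. Grey points are the other genes and the same-sign genes that were not called, red points the 160 called higher and blue points the 140 called lower in RV. The red points lie at lower expression (median TPM 5.45) than the blue (median 20.9), and Nppb, Penk, Irx1 and Irx2 have the lowest differences among the blue points.

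Nearness to the limits can be read from single genes. Just inside the TPM limit was Trh (thyrotropin releasing hormone), whose deposited TPM was 1.07 in the library that decided it, the one ranked 3 from the top, and just outside was Ubxn10, at 0.9995. Just inside the sign limit was RT1-DMa, whose smallest difference within a heart was 0.01, and just outside was C5ar1, the receptor of complement fragment C5a, with -0.02 in 1 heart and higher values in RV in the other 5. Besides Ubxn10, the called genes below the TPM limit were C6, Epha3 and Il1rl1, all higher in RV. Nkain4 (5 of 6 hearts higher in RV) and LOC100359616 (listed at 0 in all 6 RV libraries and in 2 LV libraries) missed the sign limit. The 1716 genes include 1445 with a TPM of at least 1 in all 12 libraries, and 84 that reached it in fewer than 6.

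Of the called genes over 4-fold lower in RV, those of 2 secreted peptides were the most abundant. Nppb, the gene of B-type natriuretic peptide, had scaled TPM in LV of 738, 843 and 747 in normoxic hearts 1, 2 and 3 and 1025, 2440.2 and 1907 in hypoxic hearts 1, 2 and 4. In RV the values were 153, 40.2 and 87.4 in normoxic hearts 1, 2 and 3 and 212, 257 and 371 in hypoxic hearts 1, 2 and 4. The lowest LV library lay above the highest RV library, and Nppb was 7.57-fold lower in RV (log2 difference -2.92 ± 0.29, adjusted p = 0.0163). Penk, the gene of proenkephalin, had scaled TPM in LV of 167, 256 and 37.1 in normoxic hearts 1, 2 and 3 and 274, 419 and 294 in hypoxic hearts 1, 2 and 4. In RV they were 10.8, 10.6 and 6.60 in normoxic hearts 1, 2 and 3 and 91.7, 25.1 and 23.9 in hypoxic hearts 1, 2 and 4. Every heart had more Penk in LV, by 10.5-fold over all hearts (log2 difference -3.39 ± 0.41, adjusted p = 0.0163), although RV of hypoxic heart 1 was above LV of normoxic heart 3. Nppa, which encodes atrial natriuretic peptide and neighbours Nppb in the rat genome, also had less signal in RV in all 6 hearts, with log2 differences of -0.70 to -4.96, but was not called (-2.54 ± 0.66, adjusted p = 0.0877). In the normoxic hearts its log2 difference was -4.16 and in the hypoxic hearts -1.01. The difference between them was 3.15 ± 0.40, unadjusted p = 9.49e-05, adjusted p = 0.244. The receptors Npr1, Npr2 and Npr3 had log2 differences of 0.09 ± 0.07, -0.03 ± 0.10 and 0.41 ± 0.30, and none had the same sign in 6 hearts. Of the 6 measured genes of the natriuretic list, 1 was called lower in RV and 0 higher.

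The promoter of Nppb is shown because Nppb was the most abundant of the called genes that were over 4-fold lower in RV. It is the stretch of 250 bases before the RefSeq start (chr5:163699758-163700007, plus strand, assembly GRCr8), and capitals mark matches to the TATA motif TATAAA, the GATA motif AGATAA and the MCAT motif CATTCC on either strand.
Nppb: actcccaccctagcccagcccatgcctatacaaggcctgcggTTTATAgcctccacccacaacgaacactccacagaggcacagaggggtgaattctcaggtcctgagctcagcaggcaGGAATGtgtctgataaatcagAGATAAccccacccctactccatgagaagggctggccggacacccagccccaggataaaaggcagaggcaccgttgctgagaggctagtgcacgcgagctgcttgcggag
The matches lie 208 to 203, 110 to 105 and 131 to 126 bases before the start, and the TATA and MCAT matches are on the opposite strand. AGATAA was in 5.62% and CATTCC in 9.82% of the 9610 promoters of tested genes, and TATAAA was in 6.67%.

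**Figure D2:**
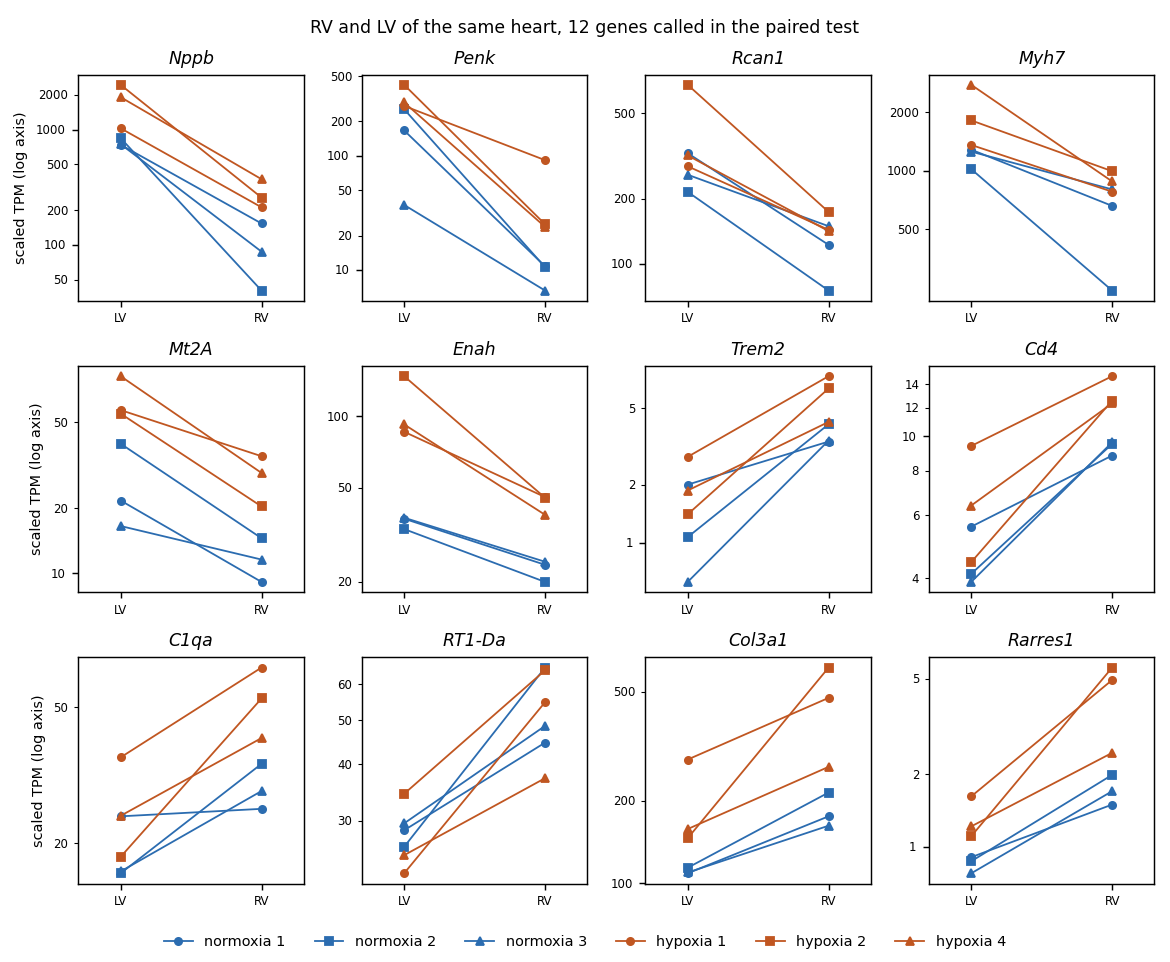
Scaled TPM (vertical log axes) in LV and RV of each heart for 12 called genes, with a line joining the chambers of 1 heart, blue for normoxic and orange for hypoxic hearts. Nppb lies between 738 and 2440.2 in LV and between 40.2 and 371 in RV. All 6 lines of every gene run in the same direction, which follows from the same-sign rule that chose the genes.

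Transcription factors that pattern the chambers gave 4 called genes of 34 measured, 3 lower in RV and 1 higher, against 2.23% of all genes called. The list as a whole had a median log2 difference of -0.02 beside 0.00 for all genes. When each heart was left out, it gave 0 calls higher and 0 to 2 lower in RV. Irx1 and Irx2, neighbouring Iroquois homeobox genes, were both lower in RV. Irx1 had scaled TPM of 0.582 to 2.73 (median 1.51) in LV and 0.0247 to 0.315 (median 0.0991) in RV, a log2 difference of -3.59 ± 0.38 (adjusted p = 0.0163). Irx2 had 0.291 to 2.77 (median 1.98) in LV and 0.0528 to 0.249 (median 0.150) in RV (-3.30 ± 0.47, adjusted p = 0.0212). The libraries of the chambers did not overlap for either gene, and no RV library reached a scaled TPM of 1 for either, so both passed the TPM limit only through the LV and had to differ. In normoxic heart 3 the difference of Irx2 was only -0.54. Irx3, Irx4 and Irx5 of the same family were found in both chambers and did not have the same sign in 6 hearts, with log2 differences of -0.38 ± 0.09, 0.09 ± 0.10 and -0.65 ± 0.21. Tbx3, a T-box repressor of the conduction system, was lower in RV at 1.08 to 2.36 (median 1.64) scaled TPM against 2.20 to 4.06 (median 2.49) in LV (-0.76 ± 0.15, adjusted p = 0.0457), a call that was lost when libraries were scaled on myocyte markers. Hey2, a Notch target known from the compact ventricular wall, was the 1 factor called higher in RV, at 3.94 to 6.07 (median 5.13) against 2.00 to 4.50 (median 3.17) in LV (0.68 ± 0.12, adjusted p = 0.0316). The calls of Hey2 and Tbx3 were lost in all 6 fits that leave out 1 heart. Without the block they were lost too (adjusted p = 0.159 for Hey2 and 0.0822 for Tbx3). Hey1, a relative of Hey2, was lower in RV in all 6 hearts but not called (-0.32 ± 0.07, adjusted p = 0.0684), and Heyl had 0.02 ± 0.06. Of the general cardiac factors, Gata4 was lower in RV in 6 of 6 hearts by little (-0.16 ± 0.05, adjusted p = 0.15), and Nkx2-5 (0.01 ± 0.14), Tbx5 (-0.20 ± 0.07), Tbx20 (-0.13 ± 0.19), Hand2 (-0.15 ± 0.10) and Mef2c (0.03 ± 0.07) did not have the same sign in 6 hearts. Meis1 and Meis2, homeobox cofactors, were higher in RV in all 6 hearts without being called (0.28 ± 0.07, adjusted p = 0.0882 and 0.32 ± 0.08, adjusted p = 0.0866).

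Among the genes of the contractile apparatus, the slow myosin heavy chain stood out. Myh7, which rises in the rat ventricle under load, had scaled TPM of 1017 to 2763 (median 1319) in LV and 242 to 993 (median 789.9) in RV, with no overlap, and was 2.24-fold lower in RV (log2 difference -1.16 ± 0.19, adjusted p = 0.0298). Without the block its adjusted p was 0.0673, and it was above 0.05 in 5 of the 6 fits that leave out 1 heart (0.0586 to 0.0842). Of 39 measured sarcomere and Z-disc genes 4 were called lower in RV and 0 higher, 13 were lower and 1 higher in all 6 hearts, and the median was -0.32. The median was -0.06 in the normoxic and -0.51 in the hypoxic hearts, and with scaling on myocyte markers 4 were lower and 3 higher. Ankrd23, a titin-associated ankyrin repeat protein, was lower in RV at 3.37 to 37.1 (median 14.97) against 20.5 to 82.9 (median 58.1) scaled TPM in LV (-1.80 ± 0.23, adjusted p = 0.0184). Xirp2, an actin-binding Xin repeat protein of the intercalated disc, was lower at 16.6 to 45.9 (median 22.1) against 27.0 to 99.7 (median 36.1) (-0.79 ± 0.12, adjusted p = 0.023). Mybpc2, the fast skeletal form of myosin binding protein C, was a rare transcript at 0.492 to 2.09 (median 0.956) in RV and 1.02 to 3.38 (median 1.65) in LV (-0.77 ± 0.13, adjusted p = 0.0298). Its sign was not kept in deposited TPM. Csrp3, the muscle LIM protein, was among the most abundant of the called genes, with 1063 to 1782 (median 1298) scaled TPM in RV and 1656 to 3551 (median 1832) in LV (-0.65 ± 0.09, adjusted p = 0.0186). Actc1, cardiac alpha-actin, was lower in RV in all 6 hearts with no overlap of the chambers but was not called (-0.39 ± 0.08, adjusted p = 0.0582).

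Chosen after their values were seen, other genes of the Z-disc, costamere and intercalated disc were lower in RV. Nrap, an actin-anchoring protein of the myotendinous junction and intercalated disc, had 47.8 to 63.0 (median 55.4) in RV and 71.5 to 144 (median 89.6) in LV, with no overlap (-0.81 ± 0.12, adjusted p = 0.0249). Enah, an actin filament elongation factor, had a log2 difference of -0.99 ± 0.15 (adjusted p = 0.0224), Pkp2 (plakophilin of the desmosome) of -0.33 ± 0.05 (adjusted p = 0.0249) and Hspb3, a small heat shock protein of muscle, of -0.56 ± 0.09 (adjusted p = 0.0261). Pdlim5, Sorbs2, Slmap and Alpk3, which code for a PDZ-LIM protein, an SH3 adaptor of the Z-disc, a sarcolemmal membrane protein and an alpha-kinase, had log2 differences of -0.37 ± 0.06, -0.48 ± 0.07, -0.49 ± 0.09 and -0.51 ± 0.09. The calls of Hspb3, Pdlim5, Sorbs2, Slmap, Pkp2 and Alpk3 were lost when libraries were scaled on myocyte markers, while those of Nrap, Enah, Ankrd23, Xirp2, Csrp3 and Myh7 stayed.

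Promoters of 104 of the 140 called genes lower in RV and of 105 of the 160 higher in RV were in the RefSeq table. Of 12 motifs searched in 250 bases, the MEF2 box, bound by a muscle transcription factor, was in 8.65% of those lower in RV and 0.952% of those higher, against 1.48% of tested genes and 22.6% of the sarcomere list. The CArG box was in 0% of those lower and 0.952% of those higher, against 1.16% of tested genes and 16.1% of the sarcomere list. TATAAA was in 13.5% and 13.3%, against 6.67% of tested genes. The cyclic AMP element was in 7.69% of those lower and 0.952% of those higher, against 2.81%. Xirp2 (chr3:72534036-72534185, plus strand) and Hspb3 (chr2:47029166-47029315, minus strand) are shown as examples from the 150 bases before the start in GRCr8, with the MEF2 box in capitals.
Xirp2: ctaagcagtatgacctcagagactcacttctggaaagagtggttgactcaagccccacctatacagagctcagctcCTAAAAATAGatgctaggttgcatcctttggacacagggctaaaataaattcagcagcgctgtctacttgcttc
Hspb3: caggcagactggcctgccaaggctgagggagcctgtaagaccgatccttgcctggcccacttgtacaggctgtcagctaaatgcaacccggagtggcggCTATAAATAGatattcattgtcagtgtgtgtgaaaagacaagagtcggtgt
The MEF2 box shares rest on 9 promoters with a match among the 104 and 1 among the 105.

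Rcan1, an inhibitor of calcineurin that calcineurin signalling itself induces, had scaled TPM in LV of 326, 216 and 259 in normoxic hearts 1, 2 and 3 and 284, 679 and 319 in hypoxic hearts 1, 2 and 4. In RV it had 122, 74.9 and 149 in normoxic hearts 1, 2 and 3 and 144, 174 and 142 in hypoxic hearts 1, 2 and 4, below every LV library (-1.31 ± 0.15, adjusted p = 0.0163). Hopx, a homeodomain-only protein that modulates serum response factor, had 26.5 to 73.9 (median 43.9) in RV and 86.4 to 132 (median 112) in LV, again with no overlap (-1.34 ± 0.18, adjusted p = 0.0186). Rnd1, a small GTPase, was lower at 3.56 to 17.7 (median 7.97) in RV against 8.73 to 65.3 (median 17.6) in LV (-1.37 ± 0.16, adjusted p = 0.0163), as was the TWEAK receptor Tnfrsf12a at 6.64 to 32.95 (median 18.1) against 18.9 to 144 (median 44.2) (-1.35 ± 0.23, adjusted p = 0.0316). Of 28 immediate early and stretch genes 0 were called higher in RV and 5 lower, against 1.03% of all genes called lower. The 5 were Rcan1, Tnfrsf12a, Ier5, Btg2 (-0.58 ± 0.10) and Dusp8 (-1.10 ± 0.19). With library totals 2 of the 28 genes were called lower, Rcan1 and Tnfrsf12a, and 1 higher, so the calls of Ier5, Btg2 and Dusp8 were lost. With myocyte scaling 4 were called lower and 2 higher, and Btg2 was not called. Crem, a cyclic AMP responsive factor outside this list, was lower too (-0.43 ± 0.06), with its call lost under both scalings. The median of the 28 genes was -0.12 (-0.15 to -0.04 without each heart), with 11 positive, and it was above 0 with library totals (0.04) and with myocyte scaling (0.15). Hsp90aa1 was the 1 called gene of 26 heat shock proteins, lower in RV (-0.58 ± 0.09, adjusted p = 0.0268), and its sign was not kept in all hearts with myocyte scaling. Bnip3, a mitochondrial protein of mitophagy that hypoxia induces, was lower in RV at 114 to 205 (median 156) against 175 to 370.5 (median 215) (-0.63 ± 0.10, adjusted p = 0.0274). With myocyte scaling Bnip3 did not keep its sign in all hearts either. Its log2 difference between hypoxic and normoxic hearts was 0.73 ± 0.10, adjusted p = 0.00142, in the edgeR fit of 12 libraries. That fit takes both libraries of a rat as separate samples.

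The adjacent genes Mt1 and Mt2A, which code for the zinc-binding metallothioneins, were lower in RV. Mt1 had scaled TPM of 34.1 to 74.1 (median 47.9) in RV and 58.4 to 153 (median 108) in LV (-0.97 ± 0.14, adjusted p = 0.0212), and Mt2A had 9.10 to 34.8 (median 17.4) in RV and 16.5 to 81.7 (median 47.3) in LV (-1.14 ± 0.15, adjusted p = 0.0184). Slc39a2, a zinc importer of the ZIP family, was lower too, with 2.28 to 4.78 (median 3.12) in RV and 5.41 to 14.9 (median 7.43) in LV and no overlap (-1.32 ± 0.15, adjusted p = 0.0163). The promoters of Mt1 (chr19:10832976-10833225, minus strand) and Mt2A (chr19:10838709-10838958, minus strand), 250 bases before the start in GRCr8, are shown because the pair moved together, and capitals mark the metal response core TGCNCNC on either strand and TATAAA.
Mt1: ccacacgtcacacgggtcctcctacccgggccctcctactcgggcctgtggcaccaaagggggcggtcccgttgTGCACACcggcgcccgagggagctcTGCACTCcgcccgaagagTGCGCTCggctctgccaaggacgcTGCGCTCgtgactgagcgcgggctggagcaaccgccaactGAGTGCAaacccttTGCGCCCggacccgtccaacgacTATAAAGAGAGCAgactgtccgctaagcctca
Mt2A: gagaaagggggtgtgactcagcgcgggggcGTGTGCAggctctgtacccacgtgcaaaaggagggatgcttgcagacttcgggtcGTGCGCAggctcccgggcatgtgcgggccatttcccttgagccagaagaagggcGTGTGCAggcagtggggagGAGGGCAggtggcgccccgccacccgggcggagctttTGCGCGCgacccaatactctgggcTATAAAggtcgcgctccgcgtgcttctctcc
Mt1 held 7 cores and Mt2A held 5, and in Mt1 the nearest core begins right after the TATA match. At least 1 core was in 54.0% of promoters of tested genes, and 5 or more were in 0.499%.

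Other genes with the largest weakest difference among those lower in RV code for proteins of varied function. Tceal7, a small protein related to elongation factor A, had 1.04 to 40.7 (median 8.59) scaled TPM in RV and 11.4 to 111 (median 24.8) in LV (-1.93 ± 0.26, adjusted p = 0.0184). Pllp, plasmolipin of myelin and epithelial membranes, had 1.99 to 9.67 (median 4.10) in RV and 4.56 to 21.04 (median 8.07) in LV (-1.18 ± 0.13, adjusted p = 0.0163). Efcab6, with EF-hand domains, had 0.517 to 6.60 (median 1.62) and 2.35 to 13.9 (median 7.33) (-1.61 ± 0.27, adjusted p = 0.0302), and Gpr155, a lysosomal membrane protein, had 2.60 to 6.36 (median 3.81) and 4.92 to 20.7 (median 7.09) (-1.05 ± 0.13, adjusted p = 0.0184). The RV and LV ranges of these 4 genes overlap, while within each heart LV was higher. Rps18l1 is a ribosomal protein paralogue, and reads shared with near-identical copies make its values (-1.75 ± 0.30) uncertain. Of 28 potassium channel subunits edgeR's quasi-likelihood fit called 0, 4 higher and 2 lower had an unadjusted p under 0.05, and the likelihood ratio test called 1 lower and DESeq2 0.

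All 40 measured nuclear genes of the respiratory chain and ATP synthase had a negative log2 difference, from -0.30 to -0.12, with a median of -0.21. Of these 19 were lower in all 6 hearts and 0 were called in the edgeR quasi-likelihood fit, although 23 had an unadjusted p under 0.05, the likelihood ratio test called 2 and DESeq2 called 9. With myocyte scaling the median turned to 0.06, and without hypoxic heart 2 it was -0.13. The 17 cardiac myocyte markers were all negative as well (median -0.26, 9 lower in all 6 hearts, 1 called). Of 30 fatty acid oxidation genes 27 were negative (median -0.18, -0.02 in normoxic and -0.34 in hypoxic hearts, 0.09 with myocyte scaling and -0.08 without hypoxic heart 2), and the 1 call was Angptl4, an inhibitor of lipoprotein lipase, higher in RV (0.90 ± 0.15, adjusted p = 0.0316). Named after their values were seen, Oxct1 and Bdh2 of ketone body use (-0.29 ± 0.06 and -0.49 ± 0.09) and Idh1, the cytosolic isocitrate dehydrogenase (-0.57 ± 0.06), were called lower in RV. None of the 3 kept its sign in all 6 hearts with myocyte scaling.

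Macrophage genes were the list with the most calls higher in RV. Of 20 measured macrophage and monocyte markers 15 were called higher in RV and 0 lower, against 1.21% of all genes, 17 were higher in all 6 hearts, and the median log2 difference was 0.88 beside 0.00 for all genes. The summed level of the list was 78.5 to 218 TPM in LV and 133 to 365 TPM in RV, and 1 of its genes was at 0 in all libraries. The median ran from 0.77 to 1.00 when each heart was left out. The number called was 0 without normoxic heart 2 or hypoxic heart 1 and 2 to 4 without hypoxic hearts 2 or 4 or normoxic heart 3. All 15 kept an unadjusted p under 0.05, which was largely fixed by their having been called in all 6 hearts. Trem2, a lipid-sensing receptor of macrophages, had scaled TPM in LV of 2.01, 1.07 and 0.6253 in normoxic hearts 1, 2 and 3 and 2.80, 1.41 and 1.87 in hypoxic hearts 1, 2 and 4. In RV it had 3.36, 4.13 and 3.40 in normoxic hearts 1, 2 and 3 and 7.35, 6.34 and 4.25 in hypoxic hearts 1, 2 and 4. No RV library fell as low as the highest LV library (1.59 ± 0.21, adjusted p = 0.0184). Adgre1, which codes for the F4/80 antigen, had 2.25 to 4.13 (median 2.65) in RV and 0.887 to 1.93 (median 1.44) in LV with no overlap (1.04 ± 0.12, adjusted p = 0.0163). Csf1r, the receptor on which macrophage survival depends, had 8.95 to 17.7 (median 11.8) in RV and 5.10 to 12.1 (median 7.28) in LV (0.79 ± 0.11, adjusted p = 0.0209). Cd68, a lysosomal glycoprotein of macrophages, had 5.30 to 9.88 (median 7.99) and 3.07 to 5.85 (median 3.67) (0.92 ± 0.14, adjusted p = 0.0249). Folr2, Lyve1 and Mrc1, known from resident macrophages, were higher in RV by 0.92 ± 0.15, 0.89 ± 0.15 and 0.75 ± 0.13. Clec4a was higher by 1.83 ± 0.24, but it lies beside the related Clec4a3 and shared reads make its share uncertain.

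Cd4 was the 1 called gene of 19 T and NK cell markers. It had scaled TPM in LV of 5.58, 4.11 and 3.90 in normoxic hearts 1, 2 and 3 and 9.39, 4.44 and 6.39 in hypoxic hearts 1, 2 and 4, and in RV 8.83, 9.51 and 9.61 in normoxic hearts 1, 2 and 3 and 14.7, 12.6 and 12.4 in hypoxic hearts 1, 2 and 4 (1.03 ± 0.12, adjusted p = 0.0163). Rat macrophages also carry CD4, and Cd3e and Cd3g of the T cell receptor complex were rare, at 0.373 to 1.19 (median 0.934) and 0.557 to 2.11 (median 1.62) scaled TPM in RV, and not called (0.55 ± 0.24, adjusted p = 0.255 and 1.17 ± 0.25, adjusted p = 0.0581). The median of the T and NK list was 0.17, with 0.55 in normoxic and -0.04 in hypoxic hearts. It ran from 0.15 to 0.33 when each heart was left out, highest without hypoxic heart 4. Of 5 B cell markers 0 were called by edgeR, 2 had an unadjusted p under 0.05, and the likelihood ratio test called 1 and DESeq2 0. Pan-leukocyte genes gave 12 calls higher in RV of 25 and 0 lower, with a median of 0.57 (0.50 to 0.61 without each heart), and 0 to 10 calls without each heart. Of the 25, 23 were positive. Ptprc, which codes for CD45, was higher in all 6 hearts but not called (0.39 ± 0.11, adjusted p = 0.0964). Cd48 and Ncf1, the most abundant of the list, were not called either (0.08 ± 0.09 and -0.29 ± 0.09), nor was Cd52 (-0.69 ± 0.27). Laptm5, of the lysosomes of leukocytes, had 11.5 to 14.2 (median 13.1) in RV and 7.34 to 10.0 (median 8.64) in LV with no overlap (0.57 ± 0.07, adjusted p = 0.0163), and so had the tetraspanin Cd53 at 5.09 to 8.97 (median 6.93) and 2.58 to 4.86 (median 3.70) (0.88 ± 0.11, adjusted p = 0.0163). Spi1, the transcription factor PU.1 of myeloid cells, was higher in RV (0.81 ± 0.13, adjusted p = 0.0274), as were Irf8 (0.66 ± 0.13, adjusted p = 0.0462) and Irf5 (0.78 ± 0.10, adjusted p = 0.0184), interferon regulatory factors of the same lineage. Fcgr2a, a receptor for immunoglobulin G, had 5.74 to 35.6 (median 12.2) in RV and 2.42 to 17.3 (median 4.75) in LV (1.16 ± 0.12, adjusted p = 0.0163). Every hypoxic library lay above every normoxic library of the same chamber, and the ranges of the chambers overlap.

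The motif AGGAAG, the core bound by PU.1 and other ETS factors, was in 55.2% of the promoters of called genes higher in RV and 21.2% of those lower, against 29.1% of tested genes, 62.5% of the macrophage list and 60.0% of the pan-leukocyte list. The longer site GAGGAAGT was in 4.76%, 0.962% and 2.25% of the first 3 sets. Trem2 (chr9:20151780-20151929, minus strand) and Fcgr2a (chr13:85828686-85828835, minus strand) are shown as examples from the 150 bases before the start in GRCr8, with AGGAAG or its reverse complement in capitals.
Trem2: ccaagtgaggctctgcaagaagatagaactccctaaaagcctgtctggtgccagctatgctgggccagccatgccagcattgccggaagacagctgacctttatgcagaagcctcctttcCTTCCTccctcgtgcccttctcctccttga
Fcgr2a: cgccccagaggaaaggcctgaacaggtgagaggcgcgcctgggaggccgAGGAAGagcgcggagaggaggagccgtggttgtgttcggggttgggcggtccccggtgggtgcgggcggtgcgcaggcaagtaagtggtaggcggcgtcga
A match is a description of the letters only.

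**Figure D3:**
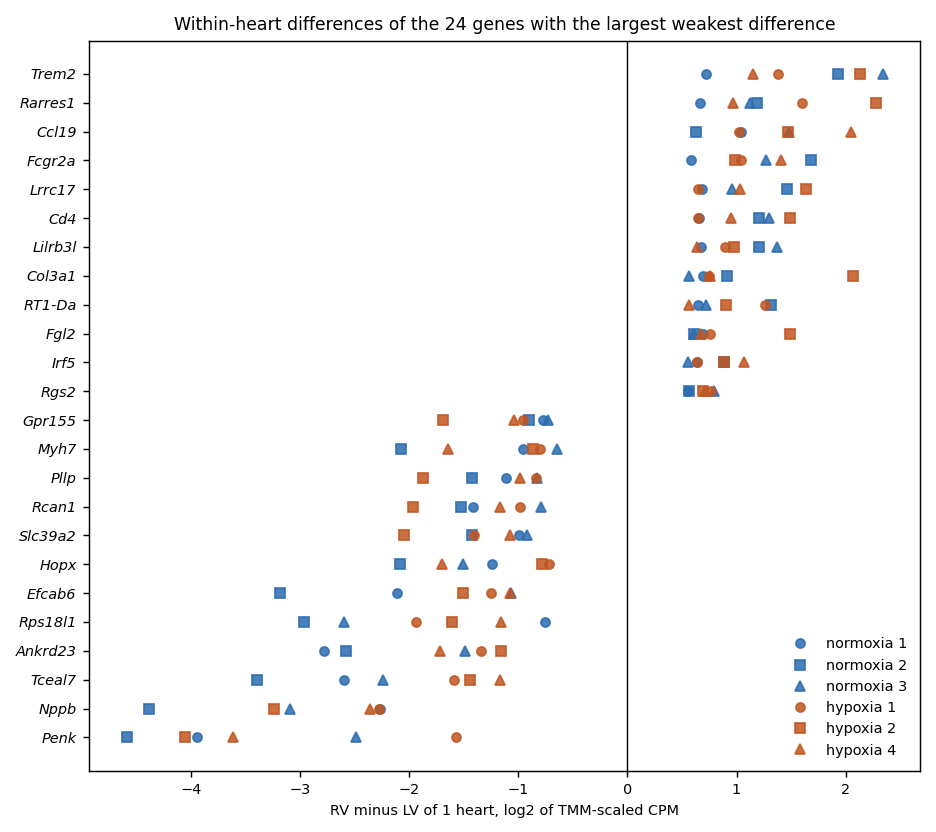
Within-heart RV minus LV differences (horizontal axis, log2 of TMM-scaled CPM) for the 12 called genes higher and the 12 lower in RV with the largest weakest difference, 1 point for each heart, blue for normoxic and orange for hypoxic. No point crosses 0, which follows from the same-sign rule. Rgs2 has the narrowest spread (0.56 to 0.80), and Col3a1 and Fgl2 have hypoxic heart 2 apart from the other 5.

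Genes of antigen presentation by MHC class II were higher in RV. Of 15 measured, 7 were called higher and 0 lower, with a median of 0.80 (0.73 to 0.86 without each heart). The number called was 0 without normoxic heart 2, hypoxic heart 1 or hypoxic heart 2. RT1-Da, the alpha chain of the rat DR-like molecule, had scaled TPM in LV of 28.5, 26.2 and 29.6 in normoxic hearts 1, 2 and 3 and 22.9, 34.4 and 25.1 in hypoxic hearts 1, 2 and 4, and in RV 44.6, 65.4 and 48.6 in normoxic hearts 1, 2 and 3 and 54.8, 64.5 and 37.2 in hypoxic hearts 1, 2 and 4, with no overlap (0.90 ± 0.11, adjusted p = 0.0184). RT1-Db1, RT1-Ba and RT1-Bb were higher by 0.83 ± 0.13, 0.86 ± 0.11 and 0.85 ± 0.12, and RT1-DMa and RT1-DMb, which load peptides, by 0.80 ± 0.15 and 0.41 ± 0.05. These genes are related and vary between strains, so reads may be divided among them. The sum over the list was 457 to 529.8 deposited TPM in LV and 567 to 835 in RV. Most of it came from Cd74, at a mean deposited TPM of 384 in LV and 477 in RV. Cd74 was not called (0.15 ± 0.07, adjusted p = 0.279), so the sum says little about the RT1 genes. The difference in exposure response between the lists was not tested: beside the macrophage markers, of which 13 of 20 were called higher in hypoxic than normoxic hearts and 0 lower (7 and 0 with the libraries of a heart summed), the class II list had 1 gene called higher with exposure, RT1-DMa (0.58 ± 0.14, adjusted p = 0.0165), and 2 called lower, RT1-DMb (-1.04 ± 0.06, adjusted p = 1e-05) and RT1-Ba (-0.69 ± 0.21, adjusted p = 0.0361). These counts and p-values are from the fit of 12 libraries, which takes both libraries of a rat as separate samples. In that fit 10.9% of all genes were called higher and 10.8% lower in hypoxic hearts, so the class II counts do not set that list apart. With hearts summed 8.15% of all genes were called in either direction. With hearts summed RT1-DMb alone stayed called (adjusted p = 0.009), against 0.055 for RT1-DMa and 0.127 for RT1-Ba. The promoters of the 4 chains are shown because they moved together, 150 bases before the start in GRCr8: RT1-Da (chr20:4515265-4515414, plus strand), RT1-Db1 (chr20:4560163-4560312, minus strand), RT1-Ba (chr20:4576907-4577056, plus strand) and RT1-Bb (chr20:4604119-4604268, minus strand). Capitals mark the class II Y box CTGATTGG, in which CCAAT is read on the other strand.
RT1-Da: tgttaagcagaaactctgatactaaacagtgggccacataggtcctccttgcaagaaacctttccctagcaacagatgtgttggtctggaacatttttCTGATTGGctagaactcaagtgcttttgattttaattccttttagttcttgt
RT1-Db1: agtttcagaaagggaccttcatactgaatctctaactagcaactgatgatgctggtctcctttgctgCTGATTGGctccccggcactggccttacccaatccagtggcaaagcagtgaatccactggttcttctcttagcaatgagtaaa
RT1-Ba: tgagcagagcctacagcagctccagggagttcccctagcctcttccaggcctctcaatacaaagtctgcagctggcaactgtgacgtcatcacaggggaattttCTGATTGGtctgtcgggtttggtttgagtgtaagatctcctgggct
RT1-Bb: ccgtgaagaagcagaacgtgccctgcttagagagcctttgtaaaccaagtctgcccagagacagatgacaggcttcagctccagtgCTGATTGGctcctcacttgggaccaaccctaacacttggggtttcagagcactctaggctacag
The Y box lies 52 to 45, 83 to 76, 46 to 39 and 64 to 57 bases before the start in this order. It was in 5 of 13 promoters of the class II list (38.5%), against 4.63% of tested genes, 7.62% of called genes higher in RV and 3.85% of those lower.

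Complement and chemokine genes gave 9 calls higher in RV of 34 and 0 lower, with a median of 0.53 and 0 to 10 calls without each heart. The 3 neighbouring chains of complement C1q, made by macrophages, were all called higher: C1qa had 25.2 to 65.2 (median 37.4) scaled TPM in RV and 16.3 to 35.6 (median 21.1) in LV (0.85 ± 0.16, adjusted p = 0.0408), C1qb differed by 0.87 ± 0.16 and C1qc by 0.72 ± 0.12. In normoxic heart 1 the C1q differences were near 0, at 0.07 for C1qa, 0.05 for C1qb and 0.13 for C1qc. Cfp, properdin of the alternative pathway, was higher at 2.43 to 5.80 (median 3.51) against 1.44 to 3.53 (median 2.39) (0.73 ± 0.09, adjusted p = 0.0163), and Cfd, adipsin, at 9.02 to 22.7 (median 10.0) against 4.66 to 7.89 (median 5.64) with no overlap (1.03 ± 0.15, adjusted p = 0.0222). Ccl19, a chemokine that attracts lymphocytes and dendritic cells, had 3.32 to 8.99 (median 6.53) in RV and 1.19 to 4.11 (median 2.81) in LV (1.28 ± 0.17, adjusted p = 0.0184), and Cxcl13, which attracts B cells, had 1.52 to 5.43 (median 3.56) and 0.422 to 2.40 (median 1.54) (1.27 ± 0.19, adjusted p = 0.0224). C4a (1.54 ± 0.24) has a near-identical copy in many genomes and is given as uncertain. Named after their values were seen, Apoe and Lyz2, abundant macrophage products, were at 136 to 339 (median 231) and 78.9 to 211 (median 124) in RV against 64.9 to 172 (median 103) and 40.2 to 104 (median 73.2) in LV (1.13 ± 0.20, adjusted p = 0.032 and 0.93 ± 0.15, adjusted p = 0.0274). Lgals3, galectin-3, was higher by 0.78 ± 0.08 (adjusted p = 0.0163). Slpi, a secreted protease inhibitor, was higher by 1.44 ± 0.21 (adjusted p = 0.0224).

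**Figure D4:**
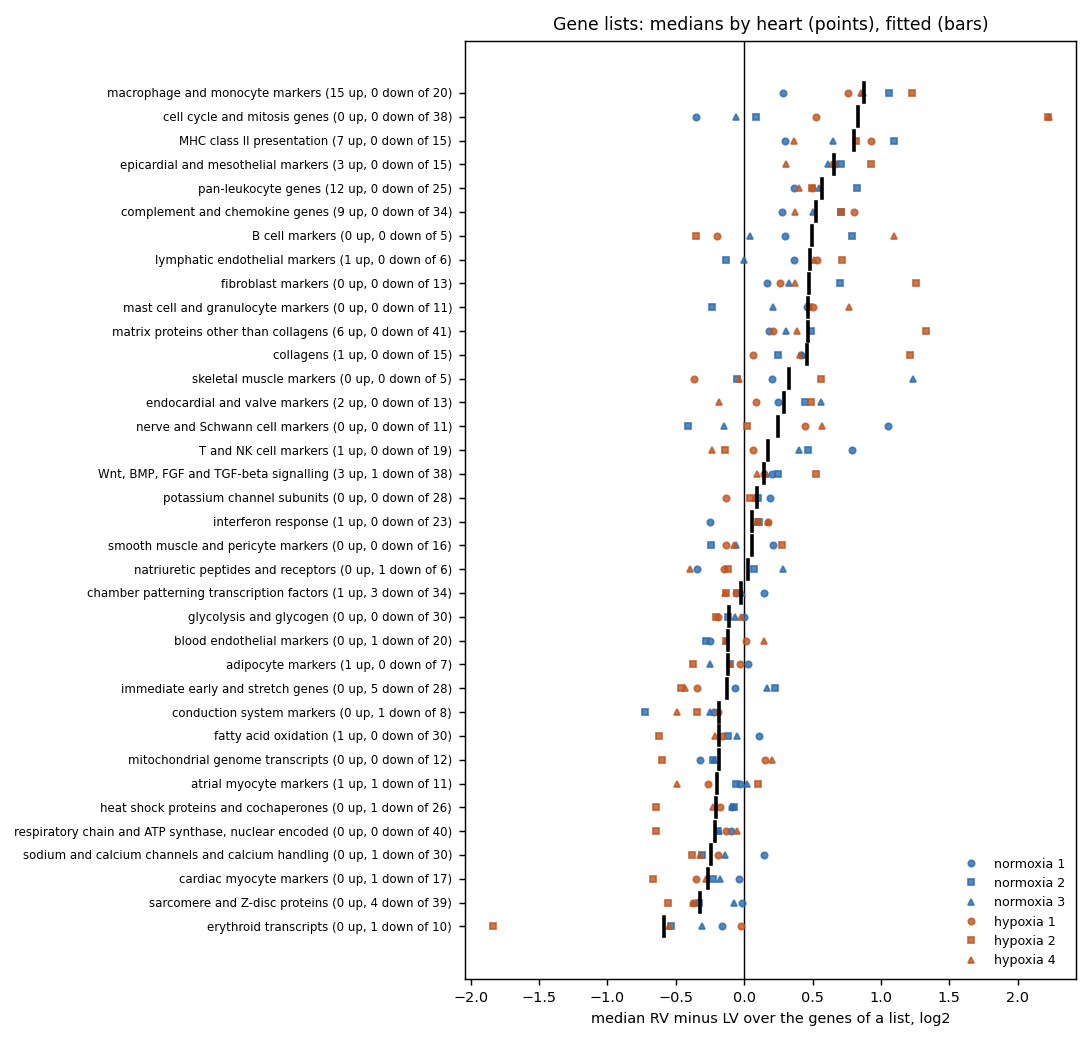
Median RV minus LV log2 difference over the genes of each of 36 lists, with 1 point for each heart (blue normoxic, orange hypoxic) and a black bar for the median of the fitted differences. The counts beside each name are genes called higher (up) and lower (down) in RV of those measured, from 15 of 20 macrophage markers to 0 for 11 lists; hypoxic heart 2 is the farthest point for erythroid transcripts (-1.84) and for the matrix (1.33).

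In the lists of collagens and of other matrix proteins, the genes called were all higher in RV. All 15 measured collagens had a positive difference (median 0.46), 7 in all 6 hearts, and 1 was called. Col3a1, a fibrillar collagen of the interstitium, had scaled TPM in LV of 109, 114 and 109 in normoxic hearts 1, 2 and 3 and 283, 146 and 158 in hypoxic hearts 1, 2 and 4, and in RV 175, 214 and 162 in normoxic hearts 1, 2 and 3 and 475, 612 and 266 in hypoxic hearts 1, 2 and 4 (0.95 ± 0.19, adjusted p = 0.0449). Its difference was 2.07 in hypoxic heart 2 and 0.57 to 0.91 in the others. Col1a1 had the same sign in 6 hearts and was not called (0.76 ± 0.17, adjusted p = 0.0584). Of 41 other matrix genes 6 were called higher in RV and 0 lower, against 1.21% of all genes called higher. Their median was 0.46, which was 0.29 without hypoxic heart 2. The likelihood ratio test and DESeq2 each called 15 of them higher and 1 lower. Of the 41, 7 were negative, among them Ctgf (-1.06 ± 0.29, adjusted p = 0.0987), which was higher in RV in only 1 heart. Cthrc1, a secreted protein of activated fibroblasts, had the largest fold of the called genes higher in RV, from a low level, at 0.570 to 7.56 (median 1.78) in RV and 0.122 to 1.05 (median 0.285) in LV (2.77 ± 0.45, adjusted p = 0.0274). With a mean deposited TPM of 0.39 in LV, it could not have passed the TPM limit without the RV. Its rank by fold follows in part from that limit. Mmp14, a membrane collagenase, was higher by 0.76 ± 0.14 (adjusted p = 0.0364), and Adamts2, which trims procollagen, by 0.67 ± 0.12 (adjusted p = 0.0376). Adamts1, outside these lists, was lower in RV, with log2 differences of -1.25 to -0.82 over 16 alternative fits, and was called in 10 of them. Fn1 (fibronectin) and Timp1 (an inhibitor of metalloproteinases) were higher by 0.81 ± 0.16 and 0.90 ± 0.18. The growth factor genes Tgfb3 (0.81 ± 0.14, adjusted p = 0.0355) and Igf1 (0.74 ± 0.15, adjusted p = 0.0449) were higher too. Of 13 fibroblast markers edgeR's quasi-likelihood fit called 0, 9 were higher at an unadjusted p under 0.05, and the likelihood ratio test called 5 and DESeq2 6 higher. In this list 6 were higher in RV in all 6 hearts, with a median of 0.47.

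Epicardial and mesothelial markers, from cells of the heart's surface, had a median of 0.66 (0.99 without normoxic heart 3). Of the 15, 3 were called higher in RV and 0 lower, against 1.21% of all genes called higher. Rarres1, a retinoid-responsive membrane protein, had 1.496 to 5.57 (median 2.22) in RV and 0.774 to 1.62 (median 1.00) in LV (1.37 ± 0.20, adjusted p = 0.0224). Upk1b, an uroplakin of mesothelium, was rare at 0.124 to 2.14 (median 1.15) and 0 to 0.585 (median 0.199) (2.40 ± 0.48, adjusted p = 0.0466), and passed the TPM limit through the RV. Rspo1, a Wnt potentiator, had 2.46 to 3.74 (median 3.20) and 1.5 to 2.86 (median 1.72) (0.66 ± 0.11, adjusted p = 0.0274). Msln (mesothelin) was just short of the threshold (2.18 ± 0.44, adjusted p = 0.05002), while Wt1 and Tbx18 of the epicardium gave -0.21 ± 0.12 and 0.24 ± 0.24 and had no sign in common. The summed level of the list was 36.1 to 64.8 TPM in LV and 45.3 to 83.4 TPM in RV. The RV wall is the thinner of the chambers in the normal heart, and how much surface each piece of tissue held is not given in the sources used here.

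Of 20 blood endothelial markers 1 was called, Flt1, a receptor of vascular endothelial growth factor, lower in RV (-0.62 ± 0.11, adjusted p = 0.0377), and the list had a median of -0.11 that was 0.05 with library totals. Plvap, a protein of fenestrated and endocardial endothelium, was higher in RV at 1.49 to 3.99 (median 2.25) against 0.314 to 1.40 (median 0.945) with no overlap (1.38 ± 0.18, adjusted p = 0.0184). Edn1, the endothelin-1 precursor, was higher by 0.67 ± 0.12 (adjusted p = 0.0342). Rgs2, a regulator of G protein signalling, had the narrowest spread of the leading genes, with differences of 0.56 to 0.80 within hearts and 8.17 to 17.1 (median 10.4) scaled TPM in RV against 5.54 to 10.0 (median 6.64) in LV (0.69 ± 0.06, adjusted p = 0.0163). Smooth muscle and pericyte markers gave 0 edgeR calls of 16, 3 lower at an unadjusted p under 0.05, while the likelihood ratio fit called 1 lower and DESeq2 called 0, with a median of 0.05.

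Transcripts of red blood cells had a negative difference for 10 of 10 genes, and a median of -0.59, which was -0.33 without hypoxic heart 2. Hbb, a globin gene with near-identical copies, was not called (-0.59 ± 0.21, adjusted p = 0.177), and the 1 call was Slc4a1, the anion exchanger of red cells (-0.73 ± 0.13, adjusted p = 0.0352). The medians were -0.16, -0.54, -0.31, -0.02, -1.84, -0.55 in normoxic hearts 1, 2 and 3 and hypoxic hearts 1, 2 and 4. The genes of myeloid cells were on the RV side and those of red cells on the LV side in hypoxic heart 2, where the list medians were 1.22 for macrophages and -1.84 for erythroid transcripts. The part of residual blood in either result was not tested.

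Among the 300 called genes, 285 could be placed in the order of the 11670 tested genes found in RefSeq (GRCr8). Of these, 14 pairs were next to each other, 13 with the same direction. How many such pairs arise by chance was not tested, and several are pairs of related genes. Besides Irx1 and Irx2, Mt1 and Mt2A, the C1q chains and the class II genes, these included Tmem176a and Tmem176b, Asgr2 and Clec10a, Clec4a and Clec4a3, Ncf4 and Csf2rb, and Cpa6 and Arfgef1.

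Exposure was pooled in the main comparison, and each exposure was then examined alone. For the interaction of chamber and exposure the quasi-likelihood test of edgeR gave 0 calls among 13756 genes (smallest adjusted p 0.244), and 1696 had an unadjusted p under 0.05. DESeq2 called 58 and the likelihood ratio fit 210. Of the 300 called genes, 25 had an unadjusted interaction p under 0.05. The difference was larger in the normoxic hearts for 109 and in the hypoxic for 191. Tested alone, the 3 normoxic hearts gave 2 calls (0.0145%) and the 3 hypoxic hearts 257 (1.87%), which does not show that the chambers differ more in hypoxia. Nppb differed by -3.23 in normoxic and -2.63 in hypoxic hearts, Penk by -3.70 and -3.10, Trem2 by 1.63 and 1.55, and Cd4 by 1.06 and 1.01. Tceal7 had the largest interaction among the 300 genes after Trh, with -2.67 in normoxic and -1.41 in hypoxic hearts (1.27 ± 0.26, unadjusted p = 0.00179, adjusted p = 0.261). Crem had the smallest, with -0.43 in both. Enah had the larger difference in hypoxia, with -0.67 in normoxic and -1.30 in hypoxic hearts (-0.63 ± 0.20, unadjusted p = 0.0145, adjusted p = 0.3). The same-sign rule limits how large an interaction a chosen gene can have.

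**Figure D5:**
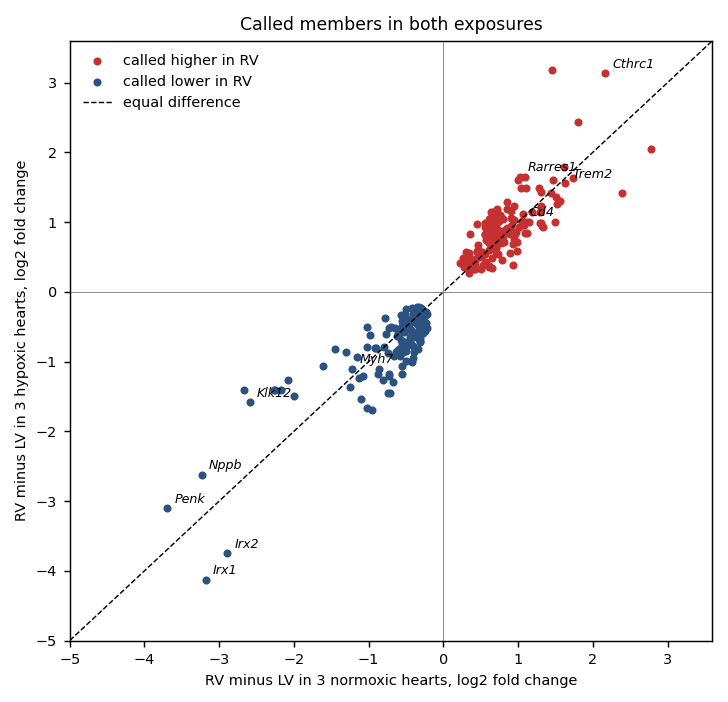
RV minus LV log2 difference in the 3 normoxic hearts (horizontal axis) and in the 3 hypoxic hearts (vertical axis) for the 300 called genes, red higher and blue lower in RV, with a dashed line of equal difference. All points lie in the quadrants of equal sign, which follows from the same-sign rule that chose the genes. The difference was larger in normoxic hearts for 109 and in hypoxic hearts for 191.

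Between hypoxic and normoxic hearts 2987 of 13756 genes were called (21.7%) with both chambers averaged, and 1121 (8.15%) when the 2 libraries of a heart were summed. With both chambers averaged, 10.9% of all genes were called higher and 10.8% lower in hypoxic hearts. Of the 160 called genes higher in RV, 70 were higher and 13 lower in hypoxic hearts, and of the 140 lower in RV, 38 were higher and 20 lower. These numbers and the values below are from the fit of 12 libraries. With hearts summed, 57 of the 300 were called, among them Nppb, Enah, Rnd1 and Gja3 but not Chrna1 (adjusted p = 0.127). Nppb was higher in hypoxic hearts (1.39 ± 0.30, adjusted p = 0.01), as were Enah (1.27 ± 0.13, adjusted p = 0.000573) and Rnd1 (1.81 ± 0.25, adjusted p = 0.00161), all 3 lower in RV. Gja3, the connexin 46 gene, was higher in RV (0.64 ± 0.08, adjusted p = 0.0184) and lower in hypoxic hearts (-1.45 ± 0.17, adjusted p = 0.00107). Chrna1, a subunit of the muscle acetylcholine receptor, was lower in RV (-0.86 ± 0.10, adjusted p = 0.0163) and lower in hypoxia (-1.58 ± 0.45, adjusted p = 0.0307).

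Cell cycle and mitosis genes had a median of 0.83 with 0 calls of 38 in edgeR's quasi-likelihood fit. At an unadjusted p under 0.05, 11 were higher, and the likelihood ratio test called 1 and DESeq2 called 0. The median was -0.13 in the normoxic hearts and 1.64 in the hypoxic. Of the 38 genes, 2 were higher in RV in all 6 hearts with a TPM of at least 1 in 3 libraries. Of all genes that met the TPM limit, 6.49% were, so this count does not set the list apart. Leaving out hypoxic heart 2 or hypoxic heart 4 lowered the median to 0.48 and 0.49. By heart, the medians were -0.35, 0.09, -0.06, 0.52, 2.22, 2.23, normoxic hearts 1, 2 and 3 before hypoxic hearts 1, 2 and 4. Tpx2, a spindle protein, and Racgap1, of cytokinesis, were the 2 genes, with 1.17 ± 0.38, adjusted p = 0.14 and 1.28 ± 0.37, adjusted p = 0.11.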

How the data were processed

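Libraries of polyadenylated RNA were made from each ventricle of 6 rats, 12 in all. Per the submitters' notes, reads were assigned by the authors with kallisto 0.43.1 to a rat transcriptome of Rnor_6.0 and summed to genes with tximport. The deposited TPM values and the deposited estimated counts, both made by the authors, are proportional within each library, so count totals are nominal depths. Of the entries, 27 carry a number in place of a symbol (0.0408% to 0.0621% of a library) and were left out.

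Estimated counts were rounded, filtered with filterByExpr (13756 genes), scaled by TMM and fitted in edgeR 4.0.16 (R 4.3.3) by quasi-likelihood with heart and ventricle as terms (5 residual degrees of freedom), and with their interaction (4). The Benjamini-Hochberg adjustment ran over all genes tested, with a threshold of 0.05. The sign in a heart is that of the difference in scaled log2 CPM (prior count 1). The SE is the log2 difference divided by the square root of F. Each heart is a separate rat, so p-values measure the spread between these 6 hearts.

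The pairing comes from the titles, in which both libraries of a heart carry 1 animal name. Across genes, deviations from the group mean correlated within hearts with r = 0.031 to 0.183, and with r = -0.157 to 0.039 for other pairs.

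The genes with the same sign, the 36 lists (770 of 791 genes matched) and the rule for named genes were chosen with earlier results of these data known. Genes named are the 12 of each direction with the largest weakest heart difference (mean TPM of at least 2, with a symbol), up to 4 of each list with the smallest p, the natriuretic and patterning lists, genes at the limits and those of largest and smallest interaction. Others were added after their values were seen: Alpk3, Apoe, Bdh2, Bnip3, C1qa, C1qb, C1qc, Cd68, Chrna1, Cpa6, Csf2rb, Enah, Fn1, Folr2, Gja3, Hspb3, Idh1, Lgals3, Lyz2, Mrc1, Mt1, Mt2A, Nrap, Oxct1, Pdlim5, Pkp2, Rnd1, RT1-Db1, Slmap, Slpi, Sorbs2, Spi1 and Timp1. Promoters and gene order are from RefSeq (GRCr8). The 12 motifs, read on both strands of 250 bases, were the TATA, GATA, MCAT, metal response, PU.1, ETS and class II Y box letters given with the results, the cyclic AMP element (TGACGTCA), the interferon response element, the heat shock element, the MEF2 box and the CArG box. GAGGAAGT holds AGGAAG. Tests were checked on simulated data. Alternatives were RLE factors, library totals, myocyte scaling, other filters, limma 3.58.1, DESeq2 1.42.0, no block and each heart left out.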

Additional observations from a re-analysis of the deposited data

Results flagged for a closer look

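Within-heart differences of 63 named genes and the medians of 36 lists were examined for 1 heart far from the other 5. The cutoff is one that chance passes in about 1 in 20 independent groups, and 11 of 99 passed it. Some of the genes were chosen by these same differences, and lists share genes. The 11 can therefore not be set against that rate. Hypoxic heart 2 was the heart apart in 9 of the 11. Its RV minus LV log2 difference was 2.07 for Col3a1, against 0.57 to 0.91 in the other hearts, 1.49 for Fgl2, against 0.61 to 0.75, and -1.69 for Gpr155, against -1.04 to -0.73. List medians in this heart were 1.21 for collagens (0.07 to 0.42 in the others), 1.33 for other matrix proteins (0.18 to 0.49), 0.53 for Wnt, BMP, FGF and TGF-beta signalling (0.09 to 0.25), -1.84 for erythroid transcripts (-0.55 to -0.02), -0.64 for heat shock proteins (-0.23 to -0.07) and -0.64 for nuclear genes of the respiratory chain (-0.19 to -0.05).

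In normoxic heart 3 the difference of Irx2 was -0.54, against -4.19 to -3.28 in the other hearts. In normoxic heart 1 the median of interferon response genes was -0.25, against 0.10 to 0.18.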

How the results depend on the processing

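The named genes that were called kept their direction under the alternatives run, while their calls did not all hold. Named genes that were not called, such as Gata4 (-0.19 to 0.11) and Nkx2-5 (-0.10 to 0.29), changed sign under some, and 4 of the 307 called genes changed direction with myocyte scaling. The number of genes called higher and lower in RV was 182 and 41 with library totals, 1257 and 59 with myocyte scaling, 573 and 442 with edgeR's likelihood ratio test, 258 and 329 with DESeq2, 282 and 58 with limma on log2(TPM + 1) and 278 and 58 on log2(TPM + 0.1), against 166 and 141. Without the replicate block it was 107 and 95, and 145 of these were among the 307. Leaving out each heart gave 0 to 189 higher and 0 to 130 lower. Interaction calls numbered 1 with myocyte scaling, 210 with the likelihood ratio test, 2 and 1 with limma at the larger and the smaller pseudocount, 58 with DESeq2, and 0 to 1 without each heart, against 0. RLE factors, no filter on low counts and a TPM filter moved the counts by less than 1.5 times.

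Genes with the same sign numbered 1705 higher and 123 lower in RV with TPM as deposited and 3899 and 90 with myocyte scaling, and 923 to 1277 higher and 1069 to 1467 lower over 5 hearts, against 789 and 927. Under TMM, RLE, deposited TPM and myocyte scaling together, 686 higher and 70 lower remained, among them 160 and 59 of the called. Genes called for exposure numbered 1121 with the libraries of a heart summed, against 2987. Depth limits rare genes such as Irx1, Upk1b and Cthrc1.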
